A study of Mus musculus with 6 samples.

Results

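The genes described here were 10 regulators of the Hippo pathway that act at or above the coactivator Yap: the angiomotin genes Amot, Amotl1 and Amotl2, the kinase genes Lats1 and Lats2, the phosphatase gene Ptpn14, and the scaffold genes Nf2, Wwc1, Wwc2 and Frmd6. They were taken by symbol from probe sets annotated with a single gene, and each of the 10 was read by 1 probe set, out of 19938 genes on the array. All 10 passed the filter on dim probe sets, which kept 13632 genes. RNA came from cardiomyocytes of mouse embryos at E12.5 and was measured on 6 Affymetrix arrays. The 3 Yap KO arrays were from embryos knocked out for Yap by TNTCre, a Cre recombinase driven by the cardiac troponin T promoter, acting on a Yap flox gene. The 3 Yap HET arrays were from embryos heterozygous for Yap under the same Cre, so the comparison is with heterozygous cells, and no wild-type cells are part of it. Both groups carried the R26 mTmG reporter, which turns a cell green after Cre has acted, and the green cells were sorted. Replicates were described as biological, and neither the litter of each embryo nor any combining of hearts on 1 array is given in the sources used here.

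In the Hippo pathway, LATS kinases phosphorylate Yap and its paralog Taz, which keeps them out of the nucleus and away from the TEAD transcription factors. Nf2 (the protein Merlin), the WWC proteins (Wwc1 is also called Kibra) and the FERM protein Frmd6 (willin) are scaffolds upstream of LATS, while the angiomotins and the phosphatase Ptpn14 bind Yap directly and hold it in the cytoplasm or at junctions. In other cell types Yap and TEAD are known to raise transcription of some of these restraints, Amotl2, Lats2, Ptpn14 and Nf2 among them, which is described as negative feedback. Embryonic heart muscle needs Yap for cardiomyocyte proliferation, and the title of the series concerns how Yap connects to PI3K signalling in these cells.

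The start windows of 4 of the genes are shown first because each holds the core TEAD motif and each of the 4 was lower in Yap KO cells. Since they were picked on both, that the 2 go together here was fixed by the choice. Wwc1 was also lower, and its window, not shown, held no match. Sequences are from RefSeq (GRCm38.p6), run 5′ to 3′ on the strand of the gene from 250 bases before to 50 after an annotated start, and have capitals at GGAATG or its reverse complement CATTCC, the letters searched on both strands.
Amotl2, chr9:102717554-102717853, plus strand: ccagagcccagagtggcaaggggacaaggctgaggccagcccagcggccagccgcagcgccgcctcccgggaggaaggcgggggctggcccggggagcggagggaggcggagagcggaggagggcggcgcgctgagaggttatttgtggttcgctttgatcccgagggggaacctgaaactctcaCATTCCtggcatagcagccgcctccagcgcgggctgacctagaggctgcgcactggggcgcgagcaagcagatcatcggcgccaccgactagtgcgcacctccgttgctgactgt
Lats2, chr14:57746074-57746373, minus strand: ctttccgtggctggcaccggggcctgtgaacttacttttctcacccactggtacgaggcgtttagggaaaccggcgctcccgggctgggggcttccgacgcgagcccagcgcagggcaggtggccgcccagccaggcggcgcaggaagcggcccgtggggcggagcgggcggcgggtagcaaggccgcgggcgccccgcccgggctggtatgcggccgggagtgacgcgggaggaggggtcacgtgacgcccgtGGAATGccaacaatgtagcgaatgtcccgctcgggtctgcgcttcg
Ptpn14, chr1:189728018-189728317, plus strand: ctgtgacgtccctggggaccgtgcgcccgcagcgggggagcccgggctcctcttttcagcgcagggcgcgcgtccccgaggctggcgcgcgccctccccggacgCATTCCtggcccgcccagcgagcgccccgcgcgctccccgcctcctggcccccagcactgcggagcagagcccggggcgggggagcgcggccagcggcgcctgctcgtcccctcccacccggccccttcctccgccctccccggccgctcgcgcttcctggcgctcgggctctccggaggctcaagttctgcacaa
Wwc2, chr8:47990495-47990794, minus strand: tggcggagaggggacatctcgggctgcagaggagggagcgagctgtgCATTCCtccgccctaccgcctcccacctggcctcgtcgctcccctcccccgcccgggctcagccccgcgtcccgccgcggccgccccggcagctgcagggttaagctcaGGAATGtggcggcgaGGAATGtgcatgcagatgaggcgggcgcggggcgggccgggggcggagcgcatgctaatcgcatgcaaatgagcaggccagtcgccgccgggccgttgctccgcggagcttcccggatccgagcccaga
The window of Lats1, a paralog of Lats2 whose level did not pass the test, is also shown. It held no match, which is the case for most windows of all genes.
Lats1, chr10:7680959-7681258, plus strand: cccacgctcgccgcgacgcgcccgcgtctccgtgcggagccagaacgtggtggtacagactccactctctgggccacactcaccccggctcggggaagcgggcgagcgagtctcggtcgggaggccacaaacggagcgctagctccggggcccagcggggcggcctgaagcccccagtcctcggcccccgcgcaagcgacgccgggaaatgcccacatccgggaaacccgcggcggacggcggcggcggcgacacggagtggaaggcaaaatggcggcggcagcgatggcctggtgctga

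The match in Amotl2 began 65 bases before the start, the one in Ptpn14 146 bases before it, and the one in Lats2 at base 5 of the transcript. Wwc2 had 3 matches, beginning 203, 94 and 79 bases before its start. Of the 12 windows of the 10 genes, those of Amot, Amotl1, Lats1, Nf2, Wwc1 and Frmd6 and the second window of Lats2 held none. Over all 32851 windows of this length, 14.7% held at least 1 match and 1.36% held at least 2. By gene, 16.6% of 27025 had a match in at least 1 window. A match of these letters is a description of the sequence, and binding was not measured here. Only the starts in the RefSeq table were searched, so other promoters and distant enhancers of the 10 genes were not read.

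**Figure D1:**
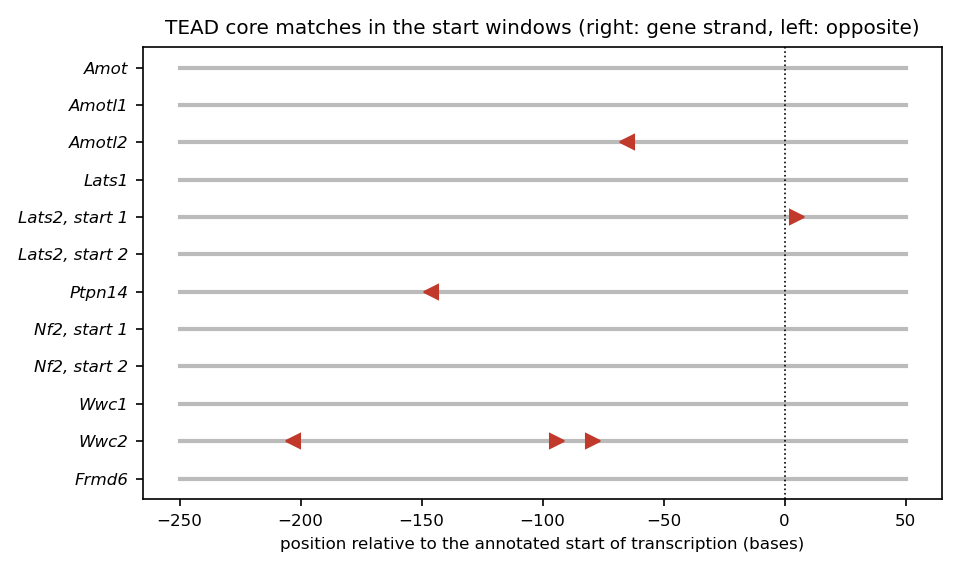
Position of each match to the TEAD core motif (triangles, pointing right on the strand of the gene and left on the opposite strand) in the start windows of the 10 genes, drawn as grey lines from 250 bases before to 50 after the annotated start (bases on the horizontal axis). Matches lie in the windows of Amotl2, Lats2, Ptpn14 and Wwc2, and Wwc2 has 3.

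Deletion was read first from Yap1 itself, which encodes Yap. Its intensity was 103, 84.7 and 86.6 on the Yap KO arrays, against 886, 927 and 871 on the Yap HET arrays. The Yap KO values lay near the filter level of 85.7, so the log2 change of -3.29 ± 0.08 (SE) may understate the loss. Correlations of log2 intensity over the genes tested, which are not independent replicates, were 0.984 to 0.991 between arrays of different groups and 0.992 to 0.996 within a group. All 12 cardiomyocyte markers were above the filter, and their summed intensity was 74104 to 76658 in Yap KO cells and 74979 to 75655 in Yap HET cells. The summed intensity of 12 fibroblast and cushion mesenchyme markers was 12246 to 14323 in Yap KO cells and 9997 to 10138 in Yap HET cells, and that of 12 endothelial and endocardial markers was 2287 to 2529 in Yap KO cells and 2029 to 2112 in Yap HET cells, in both cases without overlap. Sums for 11 blood markers were 2010 to 4149 in Yap KO cells and 1636 to 1957 in Yap HET cells. Among them, Hbb-y read 1295, 450 and 86.3 on the Yap KO arrays, against 232, 27.1 and 19.8 on the Yap HET arrays. Epicardial (3440 to 4598 in Yap KO cells, 4421 to 5299 in Yap HET cells), smooth muscle and pericyte (10813 to 11777 in Yap KO cells, 11580 to 12002 in Yap HET cells) and neural (1099 to 1202 in Yap KO cells, 1080 to 1175 in Yap HET cells) sums overlapped. Of the mesenchyme markers 5 of 12 were higher, Pdgfra (log2 change 0.98), Postn (0.72), Sox9 (0.39) and Vcan (0.33) among them. Of the 11 endothelial markers tested Kdr (0.76), Eng (0.52) and Nfatc1 (0.31) were higher and Npr3 (-0.34) lower (limma adjusted p under 0.05). Over all genes tested, 5.16% were called higher and 4.76% lower. The other 7 markers of each of these 2 lists did not pass the test. In each list the groups overlapped in 6 markers, and the median log2 change was 0.36 for mesenchyme and 0.13 for endothelial markers. At an unadjusted limma p under 0.05, mesenchyme markers had 8 higher and 0 lower, and endothelial ones 5 higher and 1 lower. Higher in the remaining lists were Nppa (0.19) among cardiomyocyte markers, Tcf21 (0.93) among epicardial ones, which is also the fifth of the mesenchyme markers, Pdgfrb (0.73) and Cspg4 (0.34) among those of smooth muscle and pericytes, and Lyz2 (0.47) among those of blood. The other epicardial markers did not pass the test, and the epicardial list had a median log2 change of -0.26. At an unadjusted limma p under 0.05, 4 of its 10 genes were lower and 1 higher, against 14.4% and 13.9% over all genes tested. On the same count, 2 of 9 blood markers tested were lower, Ptprc (-0.17) and Csf1r (-0.21), and 2 were higher. Of 8 smooth muscle and pericyte markers tested, 1 was lower, Kcnj8 (-0.37), and 3 were higher. On all 6 arrays, 2 blood markers, 2 neural markers and 1 pericyte marker were under the filter level. The part of these other cells in the values of the 10 genes was not tested, and in sorted cells read in bulk, fewer cells of a type and less RNA per cell cannot be told apart.

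Of the 10 genes, 5 were lower in Yap KO cells and 0 were higher: Amotl2, Lats2, Ptpn14, Wwc2 and Wwc1 fell. The test was limma on log2 intensity with Benjamini-Hochberg adjustment over all 13632 genes, and a gene was called at an adjusted p under 0.05. Over all genes tested, 4.76% were called lower, 5.16% higher and 9.93% in either direction. At an unadjusted limma p under 0.05 the 10 genes again had 5 lower and 0 higher, against 14.4% lower and 13.9% higher over all genes tested. An unmoderated linear model called 3 of the 10 lower and 0 higher after adjustment, against 1% lower and 0.69% higher over all genes tested. The limma calls after adjustment were 649 genes lower and 704 higher. This split moved to 339 lower and 1055 higher when each array was centred on its median. The median log2 change was -0.14 over the 10 genes and -0.02 over all genes tested. Yap KO values lay below all Yap HET values in 5 of the 10 genes, as they did in 17.2% of all genes tested, and the groups overlapped in the other 5. Log2 changes of single genes below are Yap KO minus Yap HET with the SE of the limma fit, means carry the SD of 3 arrays, and intervals are at 95%.

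**Figure D2:**
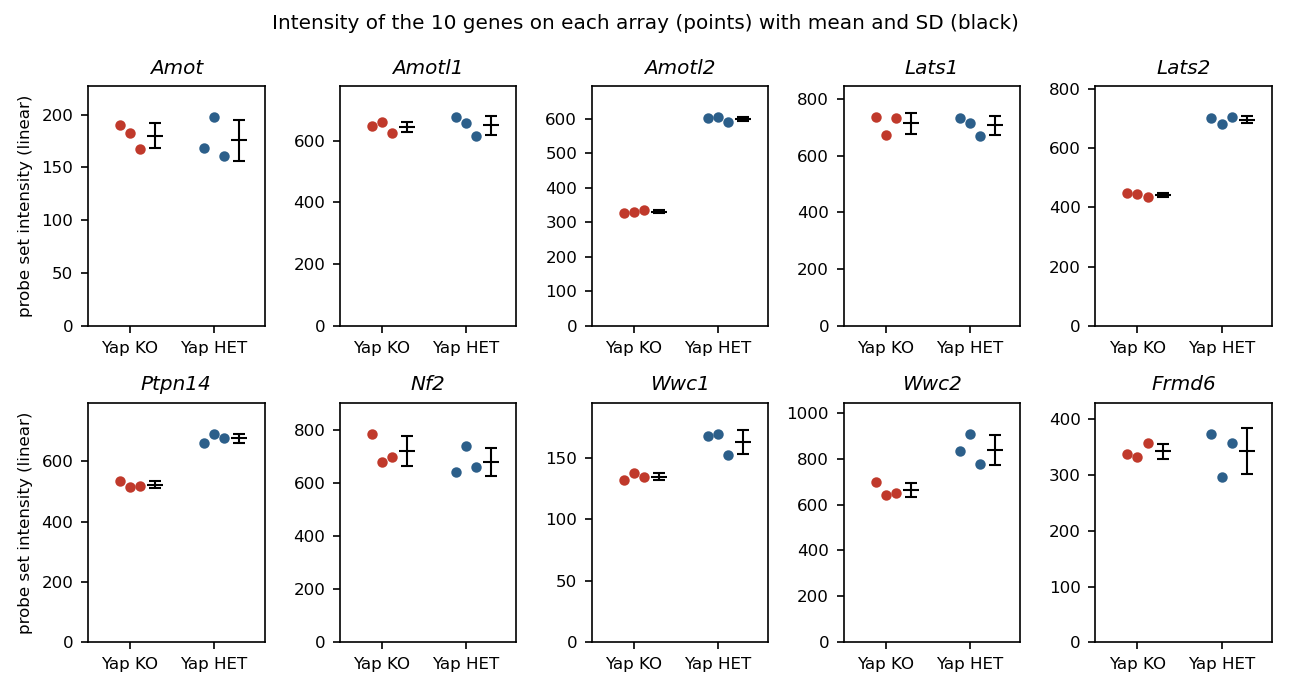
Probe set intensity (linear scale, vertical axis from 0) of each of the 10 genes on every array, Yap KO in red and Yap HET in blue, with the mean and SD of each group in black. The red points of Amotl2, Lats2, Ptpn14, Wwc1 and Wwc2 all lie below the blue ones, while the points of Amot, Amotl1, Lats1, Nf2 and Frmd6 overlap.

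Among the angiomotins, which bind Yap through short proline-rich motifs and link it to actin and tight junctions, Amotl2 fell and its 2 paralogs did not pass the test. Amotl2 read 327, 330.0 and 335 on the Yap KO arrays, against 603, 604 and 592 on the Yap HET arrays. Each group was tight and the gap between them was wide: the means were 331 ± 4.18 in Yap KO cells and 599 ± 6.83 in Yap HET cells. The log2 change was -0.86 ± 0.05 with an interval of -0.96 to -0.75, so the level was 1.81-fold lower in Yap KO cells (limma adjusted p = 0.000228). By p-value Amotl2 stood at rank 4 of the genes tested, and by size of fall at rank 19.

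Amot, the X-linked founding member of the family, read 190.1, 183 and 168 on the Yap KO arrays, against 169, 198 and 160.5 on the Yap HET arrays. The Yap HET arrays spanned the whole range of the Yap KO arrays. Its log2 change was 0.04 ± 0.09, with an interval of -0.16 to 0.24 (limma adjusted p = 0.79). Amotl1, a junctional paralog, read 648, 659 and 625 on the Yap KO arrays, against 675, 657 and 615 on the Yap HET arrays. Its groups also overlapped, and its log2 change of -0.01 ± 0.06 had an interval of -0.14 to 0.12 (limma adjusted p = 0.92). Neither interval reaches the fall of Amotl2, but changes of the size of the intervals cannot be told from none with 3 arrays a group. The probe set of Amot was also dim, at most 198 against the filter level of 85.7, so a change in Amot may be understated.

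The 2 LATS genes, whose kinases phosphorylate Yap, showed the same kind of split. Lats2 read 449, 444 and 434 on the Yap KO arrays, against 702, 683 and 704 on the Yap HET arrays. No Yap KO array came near a Yap HET array, with means of 443 ± 7.80 in Yap KO cells and 696 ± 11.7 in Yap HET cells. This was a log2 change of -0.65 ± 0.05, interval -0.76 to -0.54, so the level was 1.57-fold lower in Yap KO cells (limma adjusted p = 0.000591, rank 19 by p-value). Lats1, its paralog, read 735, 672 and 734 on the Yap KO arrays, against 734, 717 and 669 on the Yap HET arrays. The arrays of both groups covered nearly the same range. The log2 change of Lats1 was 0.01 ± 0.06, with an interval of -0.13 to 0.16 (limma adjusted p = 0.90).

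Ptpn14 encodes a tyrosine phosphatase with a FERM domain that binds Yap and LATS pathway proteins. It read 534, 513 and 517 on the Yap KO arrays, against 659, 690.2 and 677 on the Yap HET arrays. The groups were apart by more than the spread within either, with means of 521 ± 11.6 in Yap KO cells and 676 ± 15.5 in Yap HET cells. The log2 change was -0.37 ± 0.05, interval -0.49 to -0.26, so the level was 1.30-fold lower in Yap KO cells (limma adjusted p = 0.0051).

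Among the upstream scaffolds, both WWC genes fell and Nf2 and Frmd6 did not pass the test. WWC proteins bind LATS kinases and Nf2 and promote LATS activity. Wwc2 read 699.7, 641 and 651 on the Yap KO arrays, against 831, 908 and 776 on the Yap HET arrays. The Yap HET arrays were more spread than the Yap KO arrays, with means of 664 ± 31.4 in Yap KO cells and 838 ± 66.4 in Yap HET cells. The log2 change was -0.33 ± 0.07, interval -0.50 to -0.17, so the level was 1.26-fold lower in Yap KO cells (limma adjusted p = 0.0271). Wwc1 read 132, 138 and 135 on the Yap KO arrays, against 167, 169.6 and 152 on the Yap HET arrays. This probe set was dim, at most 169.6 against the filter level of 85.7, and Yap HET replicate 3 came closest to the Yap KO arrays. The means were 135 ± 3.03 in Yap KO cells and 163 ± 9.53 in Yap HET cells, a log2 change of -0.27 ± 0.06, interval -0.41 to -0.14, so the level was 1.21-fold lower in Yap KO cells (limma adjusted p = 0.0285).

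The calls of the 2 WWC genes were near the threshold, whereas those of Amotl2, Lats2 and Ptpn14 held under every alternative run. When 1 array was left out, 3 of the 10 genes were called lower if it was Yap KO replicate 2, Yap KO replicate 3 or Yap HET replicate 1, and 4 if it was Yap KO replicate 1 or Yap HET replicate 2. Wwc1 lost its call in all of these cases, with limma adjusted p up to 0.111, and kept it without Yap HET replicate 3 alone (limma adjusted p = 0.0232). Wwc2 lost its call without Yap KO replicate 2 (limma adjusted p = 0.112), Yap KO replicate 3 (limma adjusted p = 0.0850) or Yap HET replicate 1 (limma adjusted p = 0.0900). Across 19 alternatives the log2 change of Amotl2 lay between -0.87 and -0.80, that of Lats2 between -0.67 and -0.59, and that of Ptpn14 between -0.39 and -0.31, with largest adjusted p-values of 0.0031, 0.0127 and 0.0328. Wwc2 kept a fall of between -0.39 and -0.27 and passed in 11 of 19 alternatives, and Wwc1 one of between -0.32 and -0.21 and passed in 5 of 18.

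**Figure D3:**
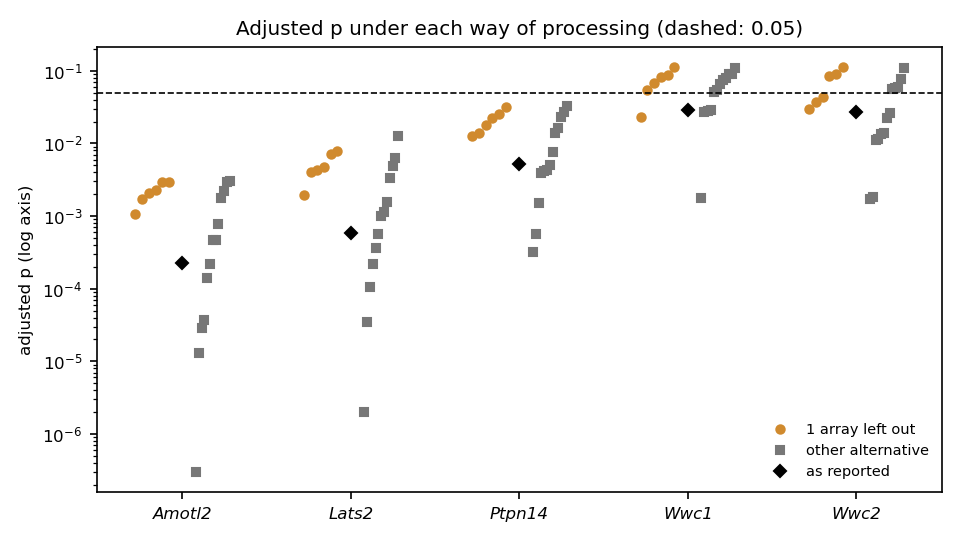
Adjusted p (logarithmic vertical axis) of the 5 genes called lower, as reported (black diamond), with 1 array left out (orange circles) and under the other alternatives (grey squares), with a dashed line at 0.05. Every point of Amotl2, Lats2 and Ptpn14 lies under the line, while points of Wwc1 and Wwc2 lie on both sides of it.

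Nf2, whose protein Merlin recruits LATS to the plasma membrane, read 786, 679 and 699.7 on the Yap KO arrays, against 641, 740.4 and 659 on the Yap HET arrays. Yap KO replicate 1 was the highest of the 6 arrays, and the other arrays of both groups were interleaved. Its log2 change was 0.08 ± 0.08, interval -0.10 to 0.27 (limma adjusted p = 0.52). Frmd6, a FERM scaffold known from other cells to act with Nf2 and Kibra, read 338, 331 and 357 on the Yap KO arrays, against 374, 296 and 358 on the Yap HET arrays. The Yap KO values lay within the range of the Yap HET values, and the log2 change was 0.01 ± 0.09, interval -0.20 to 0.21 (limma adjusted p = 0.97). Of the 4 genes named above as feedback targets in other cells, Nf2 was thus the 1 that did not pass the test.

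**Figure D4:**
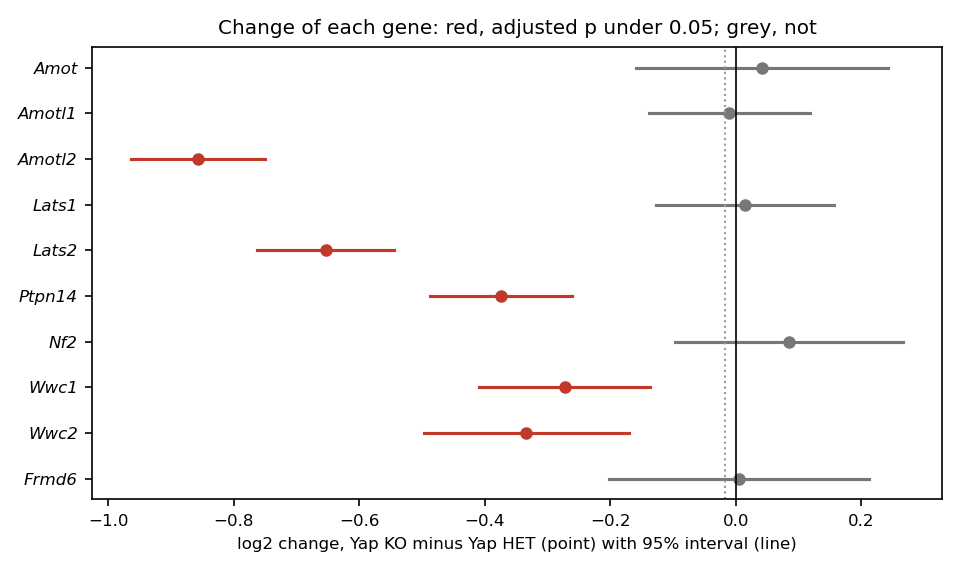
Log2 change of each of the 10 genes, Yap KO minus Yap HET (points), with its 95% interval from the limma fit (lines), in red where the adjusted p was under 0.05, and a dotted line at the median of all genes tested, -0.02. The intervals of Amotl2, Lats2, Ptpn14, Wwc1 and Wwc2 lie wholly below 0, and those of the other 5 genes cross it.

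How the changes of relatives differed was read from the log2 difference between the 2 genes on each array, for 6 pairs. The SE and interval of a pair came from the pooled variance of these differences within the groups, without limma. They are therefore not on the same footing as those of single genes. With 3 arrays against 3, the smallest two-sided p of the exact permutation test is 0.1, so no pair could pass the threshold. Amotl2 changed by -0.85 ± 0.04 (SE) relative to Amotl1, with all Yap KO arrays below all Yap HET arrays (exact permutation p = 0.1, adjusted 0.12 over the 6 pairs). Relative to Amot it changed by -0.90 ± 0.10, also with no overlap (exact permutation p = 0.1, adjusted 0.12). Lats2 changed by -0.67 ± 0.07 relative to Lats1, with no overlap (exact permutation p = 0.1, adjusted 0.12). Ptpn14 changed by -0.46 ± 0.07 relative to Nf2 and by -0.38 ± 0.13 relative to Frmd6, both without overlap (exact permutation p = 0.1 and adjusted 0.12 for each). The 2 WWC genes differed by -0.06 ± 0.06, an interval of -0.24 to 0.12, and their groups overlapped (exact permutation p = 0.4, adjusted 0.4). The first gene of each pair had been seen to fall, so these values describe the pairs and test nothing further.

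**Figure D5:**
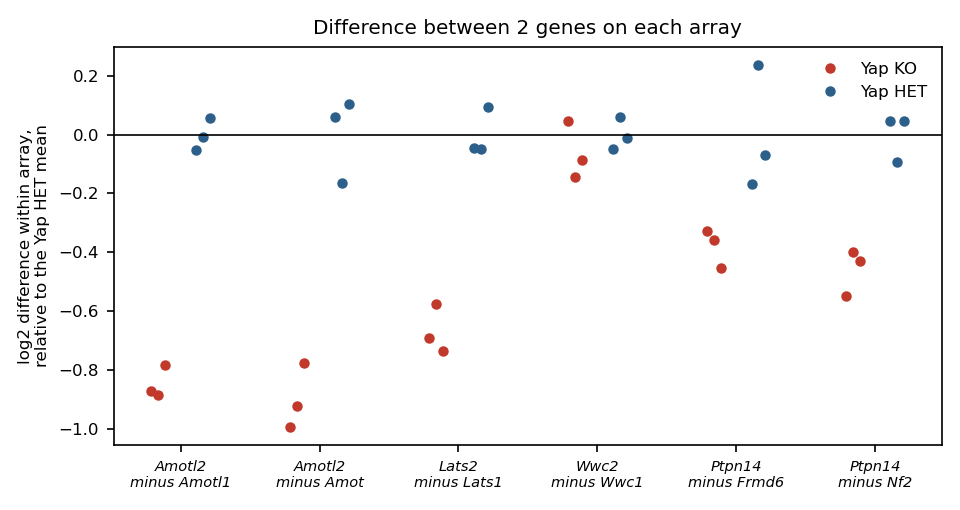
Log2 difference between 2 genes on each array, relative to its mean on the Yap HET arrays (vertical axis), for 6 pairs, Yap KO in red left of Yap HET in blue. Red points lie below blue points in 5 pairs, and the points of Wwc2 minus Wwc1 overlap.

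Genes with the pattern most like each of the 5 that fell were found by Pearson correlation of log2 intensity over the 6 arrays. This is dominated by the step between the groups and is given as a description. Genes with provisional symbols, such as those ending in Rik, and olfactory receptor genes were left out of the search. For Lats2 the genes most alike were Zfp367 (r = 0.999), Yap1 itself (r = 0.997) and Amotl2 (r = 0.996). For Amotl2 they were Mcm5, a replicative helicase gene, Tinagl1 and the carbonic anhydrase gene Car2 (r = 0.999, 0.998 and 0.998). For Ptpn14 they were Ppif, the checkpoint kinase gene Chek1 and the receptor gene Crhr2 (r = 0.999, 0.998 and 0.997). For Wwc2 they were Wdr31, the collagen gene Col8a1 and Unc13c (r = 0.998, 0.998 and 0.997), and for Wwc1 they were Gemin4, Cep78 and Aup1 (r = 0.996, 0.995 and 0.995). Between 218 and 386 of the genes searched had an r over 0.95 with any 1 of the 5, so these names are a few among many.

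The genes around the 10 in the pathway were counted in lists by role, against 4.76% of all genes tested that were lower and 5.16% higher, or 14.4% and 13.9% at an unadjusted limma p under 0.05. Of 8 genes of Yap, Taz, TEAD and Vgll factors, 2 were lower and 0 higher (3 lower and 1 higher by limma p under 0.05 before adjustment, 0 higher by the unmoderated model). The 2 called were Yap1 and Tead4, a TEAD factor gene (106 ± 4.66 in Yap KO cells and 164 ± 20.1 in Yap HET cells, log2 change -0.62 ± 0.09). Yap1 is the deleted gene, so its fall was fixed by the design, and the counts and median of this list include it. Of 20 genes of the kinase cassette that activates or restrains LATS, 1 was lower and 3 higher. The rises were in Mob1b, a coactivator of LATS kinases (log2 change 0.37 ± 0.05), the kinase gene Tnik (0.31 ± 0.05) and Rassf5 (0.32 ± 0.07), and the fall was in Slmap, an adaptor of the phosphatase complex that opposes the MST kinases (-0.21 ± 0.05). At an unadjusted limma p under 0.05, the cassette had 2 lower and 6 higher. With 1 array left out, the cassette had 0 lower in 5 of 6 cases (1 without Yap KO replicate 1), and 1 higher when the array was Yap KO replicate 2 or Yap HET replicate 1. The medians were -0.13 for the Yap to Vgll list and 0.06 for the cassette.

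Junction and polarity genes whose proteins bind or neighbour the angiomotins had 2 of 21 lower and 0 higher (6 lower and 1 higher by limma p under 0.05 before adjustment, 0 of either by the unmoderated model). The falls were in Crb2, an apical transmembrane protein gene (125 ± 10.7 in Yap KO cells and 175 ± 20.4 in Yap HET cells, log2 change -0.48 ± 0.10), and Pard6b, of the Par polarity complex (-0.28 ± 0.06). Of 17 FERM relatives of Nf2, Frmd6 and Ptpn14, 1 was lower, Epb41l5 (-0.23 ± 0.05), and 0 were higher (4 lower and 2 higher by limma p under 0.05 before adjustment, 0 of either by the unmoderated model). Of 18 genes that control turnover of angiomotins and LATS or inhibit LATS, 2 were lower and 0 higher (3 lower and 4 higher by limma p under 0.05 before adjustment, 0 lower and 1 higher by the unmoderated model). Both falls were in LIM genes whose proteins inhibit LATS, Ajuba (247 ± 34.2 in Yap KO cells and 374 ± 17.8 in Yap HET cells, log2 change -0.61 ± 0.10) and Wtip (-0.26 ± 0.06). Limd1, another LIM gene of this list, did not pass the test (-0.05 ± 0.05), and its groups overlapped. Of 17 genes of a YAP target signature, counted without the genes described here, 4 were lower and 2 higher, with a median of -0.05. Its falls were in Ccn1, F3, Dock5 and Arhgef17 and its rises in Nt5e and Myof. Of its other genes, Axl (0.20), Ankrd1 (0.20), Crim1 (-0.19), Nuak2 (-0.20, with values near the filter level) and Ccn2 (-0.14) did not pass the test. Before adjustment, the signature had 6 lower and 4 higher at a limma p under 0.05. Medians were -0.08 for the junction list, -0.06 for the FERM relatives and 0.02 for the turnover list. Counts in these short lists moved when single arrays were left out. The turnover list then had 0 lower if the array was Yap HET replicate 1 and 1 lower for each other array. The junction list had 0 lower if it was Yap KO replicate 2, 1 lower if it was Yap KO replicate 1 or Yap HET replicate 1, and 2 lower otherwise, and the FERM list had 1 lower if it was Yap KO replicate 1 or 3 and 0 otherwise. The signature had 1 lower if it was Yap KO replicate 2 or 3 or Yap HET replicate 1 and 2 lower if it was Yap HET replicate 2, and 1 higher if it was Yap KO replicate 1 or 3 or Yap HET replicate 1 or 3.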

How the data were processed

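Intensities on a linear scale, from 2e-05 to 15701, were deposited by the authors for 35556 probe sets. RMA (background correction, quantile normalization and summarisation) is named per the submitters' processing notes, with no version. RMA gives log2 values, so a further step, not given in the sources used here, set the deposited scale. Names of probe sets came from the annotation of the platform, 21789 with 1 symbol, 1621 with several (not used) and 12146 with none, and symbols were updated through a RefSeq table (21698 matched). Each gene took its probe set with the highest mean log2 intensity, and genes under the 40th percentile of probe set means (85.7) were left out. No detection call was used. Log2 intensities were fitted by group with limma (version 3.58.1, R 4.3.3, functions lmFit and eBayes), which was tested on simulated data. Genes had a median within-group SD of 0.080 (log2), and eBayes estimated 3.87 prior degrees of freedom. The median intensity of an array was 128 to 133 in Yap KO cells and 132 to 140 in Yap HET cells, and the number of arrays limits the precision. The replicate numbers of the titles were not taken as pairs.

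The members, gene lists and tests were chosen with earlier results of these data known. The rule for named genes took all 10 members, Yap1, up to 6 called genes of each pathway list and the 3 genes most like each called member. Marker lists are given as sums with up to 4 called genes each. Of the listed genes, Hbb-y, Ptprc, Csf1r, Kcnj8, Limd1, Axl, Ankrd1, Crim1, Nuak2 and Ccn2 were named besides, though not called. The alternatives were other filters, probe set rules, normalizations, priors and weights, a pseudocount of 16, a replicate block, Xist as a covariate, an unmoderated linear model and each array left out.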

Additional observations from a re-analysis of the deposited data

How the results depend on the processing

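Amotl2, Lats2 and Ptpn14 kept their fall and their call in all 19 alternatives. With 3 arrays a group, differences of the size of the intervals of Amot, Amotl1, Lats1, Nf2 and Frmd6 could not be detected, and dim genes cannot be told from background without a detection call. The cause of the changes listed here was not tested. Of the 10 genes, 3 were lower with no filter, with every probe set tested, with median centring, with the replicate block and with the unmoderated linear model, and 0 were higher in any alternative. Over all genes, lower and higher counts were 237 and 271 with no filter, 427 and 445 with every probe set, 1057 and 1189 with a trended and robust prior, 2579 and 2038 with array weights, 303 and 395 with the replicate block and 137 and 94 with the unmoderated model, and 339 were lower with median centring.

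The kinase cassette had 2 lower with the 60th percentile filter, the mean of probe sets, quantile normalization, cyclic loess, the pseudocount, the trended prior, array weights and Xist as a covariate, and 0 lower with no filter, every probe set, median centring, the replicate block and the unmoderated model. It had 5 higher with the 60th percentile filter, 6 with the trended prior or array weights and 1 with the block. The Yap to Vgll list had 1 lower with the 60th percentile filter or the unmoderated model, and 1 higher with that filter, the trended prior or array weights. The junction list had 0 lower with no filter, the block and the unmoderated model, 1 with every probe set or median centring, 4 with the 60th percentile filter or the trended prior and 7 with array weights, and 1 higher with that filter, quantile normalization, cyclic loess, the trended prior or array weights. The FERM relatives had 0 lower with no filter, every probe set, median centring, the block and the unmoderated model, 2 with the pseudocount or Xist, 3 with the 60th percentile filter or the trended prior and 5 with array weights, and 2 higher with array weights. The turnover list had 1 lower with no filter, every probe set, median centring and the block and 0 with the unmoderated model, and 1 higher with median centring, cyclic loess or the unmoderated model, 2 with the 60th percentile filter, 3 with the trended prior and 5 with array weights. The YAP target signature had 1 lower with no filter or the block, 2 with every probe set or median centring, 7 with array weights and 0 with the unmoderated model. It had 1 higher with no filter, the 60th percentile filter, every probe set, the block or the unmoderated model, and 4 with quantile normalization, median centring, the trended prior or array weights.

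With each array left out in turn, counts lay between 206 and 597 lower and 214 and 783 higher over all genes, 3 and 5 lower among the 10 genes, 0 and 1 lower and 1 and 3 higher in the cassette, 2 and 3 lower in the Yap to Vgll list, 0 and 2 lower in the junction list, 0 and 1 lower in the FERM and turnover lists, and 1 and 4 lower and 1 and 2 higher in the signature. The median of the 10 genes lay between -0.19 and -0.12. Genes that had not passed the test changed sign in some alternatives. Amotl1 had a log2 change of 0.051 with median centring, Lats1 one of -0.052 and Frmd6 one of -0.11 with array weights. With 1 array left out the change lay between -0.021 and 0.13 for Amot, -0.049 and 0.019 for Amotl1, -0.025 and 0.057 for Lats1, and -0.097 and 0.072 for Frmd6. None of these passed the threshold there.

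Deviations from the group means of arrays with the same replicate number correlated at -0.076, -0.17 and 0.12 for numbers 1, 2 and 3. Not every array correlated best with its own number. Such correlations cannot exclude a pairing with so few arrays a group, since the deviations within each group cancel out. Under the replicate block the calls of Wwc1 (limma adjusted p = 0.0648) and Wwc2 (limma adjusted p = 0.0588) were lost, and the reason for this was not tested.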

Other observations

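The TEAD core letters in start windows were also counted by the outcome of the test over all genes with a window. They were present in 22.3% of 506 genes called lower, 15.5% of 524 genes called higher and 14.0% of 9846 genes not called. These shares are descriptive and were not tested. Among the 5 of the 10 regulators that fell, Wwc1 is the 1 whose window held no match.

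Xist, the transcript of the inactive X chromosome, read 3015, 988 and 1356 on the Yap KO arrays, against 2112, 2313 and 600.1 on the Yap HET arrays, so the arrays of both groups differed in their level of it. With Xist as a covariate, 5 of the 10 regulators were lower and 0 higher.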
